A study of Mus musculus with 4 samples.

Results

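The 10 genes examined here were chosen by name as genes of the astrocyte lineage. They were *Gfap*, *S100b*, *Aqp4*, *Slc1a2*, *Slc1a3*, *Aldh1l1*, *Aldoc*, *Gja1*, *Cd44* and *Nfia*, and every probe that the array files label with one of these symbols was read. These are 19 of the 55681 probes on the array, and 17 of them passed the filter on dim probes, so that all 10 genes were among the 20227 genes tested. The 2 probes that did not pass were both probes of *Cd44*.

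The cells were neural stem/progenitor cells (NSPCs) from mouse embryos at embryonic day 13.5, labelled as Slc:ICR in all samples, and grown as neurospheres in B-27 medium with human EGF and FGF-basic. A group of 2 arrays came from wild-type NSPCs and a group of 2 from *Trp53*-/- NSPCs, labelled as lacking both copies of the p53 gene, and the methods state that the *Trp53* mutant line came as heterozygous mice from a repository and that cells had been passaged several times. Each array compared RNA from a culture given 20 μM PJ34, an inhibitor of poly(ADP-ribose) polymerases, labelled with Cy5, with RNA from untreated control cells of the same genotype, labelled with Cy3. The time of exposure to PJ34 is not given in the sources used here, nor is the number of embryos behind each culture. The methods call the replicates of a genotype biological, with RNA prepared separately for each, and do not say whether they came from different embryos.

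Neural stem cells of the embryonic brain make neurons first and glia later. The change to astrocytes is known to depend on cytokines of the interleukin-6 family acting through JAK and STAT3, on bone morphogenetic proteins, on Notch signalling and on nuclear factor I, of which *Nfia* is a family member. Several genes used as astrocyte markers, among them *Slc1a3* and *Aldoc*, are already expressed in radial glia and in cultured progenitors, while *Gfap*, *S100b* and *Aqp4* are known as later genes of the lineage. EGF and FGF hold such cultures in a proliferating state. In RNA of whole cultures, more cells of a type and more RNA per cell cannot be told apart.

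In each channel, from 21505 to 27156 probes gave a signal well above background, and having 2 arrays a genotype limits the precision. Levels are log2 normalized intensities, on which a step of 1 is a doubling, and a level of a probe is compared only with the same probe on other arrays. Each array had its own slide and its own scan, and both wild-type arrays were scanned before both *Trp53*-/- arrays. Slide, scan and genotype therefore cannot be told apart. The mutant line came from a repository, and a difference in its background beyond *Trp53* could not be told apart from genotype either. The *Trp53* probe was well above background on all 4 arrays, with control levels of 8.28 and 8.51 in wild-type and 7.56 and 7.82 in *Trp53*-/- NSPCs, and whether it lies in the deleted part is not known here. *Cdkn1a*, the p53 target that encodes p21, had log2 ratios of PJ34 over control of 1.84 and 1.23 on the wild-type arrays and of -0.48 and -0.74 on the *Trp53*-/- arrays.

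The array labelled *Trp53*-/- replicate 2 stood apart in genes of the sex chromosomes. The Y-linked gene *Eif2s3y* had log2 ratios of 0.34, 0.84 and -0.20 on the other arrays (wild-type replicates 1 and 2 and *Trp53*-/- replicate 1) and of 4.22 on this array, where only the PJ34 channel was well above background. *Ddx3y*, also Y-linked, had 0.14, 0.18, -0.20 and 3.12 in the same order, and *Xist*, which is transcribed from the inactive X chromosome, had -0.05, 0.53, 0.30 and -1.39. The control and PJ34 channels of this array therefore differed in Y-linked RNA. Both Y-linked genes were well above background in both channels of both wild-type arrays and in neither control channel of the *Trp53*-/- arrays. Results that rest on this array are given with and without it, and the part of the difference in sex-linked RNA in any result was not tested. With a *Trp53*-/- array left out, the remaining one is assumed to vary like the wild-type arrays.

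The labelled cell type was checked against marker genes. All 8 NSPC markers (*Nes*, *Sox2*, *Sox1*, *Pax6*, *Msi1*, *Prom1*, *Fabp7* and *Vim*) were well above background in both channels of all arrays. All 7 markers read for the oligodendrocyte lineage were also well above background on every array, as were 6 of 8 neuron markers in the control channels, without *Stmn2* and *Neurod1*. Of 7 markers of microglia and macrophages 2 were detected in the control channels, with *Aif1*, *Cx3cr1*, *P2ry12*, *Ptprc* and *Tyrobp* not well above background, and of 5 fibroblast and pericyte markers 0 were. Of the astrocyte lineage genes, *Gfap* in wild-type replicate 1 was not well above background, and the others were detected in both channels of all 4 arrays through the probe that each gene was read from.

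In untreated cells, 4 of the 10 genes were higher in *Trp53*-/- than in wild-type NSPCs and 0 were lower. The 4 genes were *Gfap*, *S100b*, *Slc1a2* and *Aqp4*, and *Gfap* and *S100b* differed by more than 2-fold. The other 6 genes did not pass the test. A gene passed when limma's *p* and the Storey *q* computed from it were both below 0.05, and of all 20227 genes 7.28% passed, 3.66% as higher and 3.61% as lower in *Trp53*-/- NSPCs. With the further condition of more than 2-fold, 3.78% of all genes passed in either direction. The median difference of the 10 genes was 0.45 on the log2 scale, against 0 over all genes.

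*Gfap* encodes the intermediate filament protein that is the usual marker of astrocytes. Its control level was 6.44 and 7.23 on the wild-type arrays and 9.22 and 9.21 on the *Trp53*-/- arrays, at the probe chr11:102751813-102751872 (mm9). Both *Trp53*-/- cultures lay above both wild-type cultures, by at least 1.98 on the log2 scale. The difference of the measured levels was 2.38 (95% CI 1.71 to 3.05), or 5.2-fold, with *q* = 0.0139. The wild-type level was well above background on 1 of 2 arrays, and against that array alone the difference was 1.99. The probe passed the filter on dim probes only through the *Trp53*-/- arrays, where it was high, so its call is no independent support. With no such filter its *q* was 0.0277.

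A second *Gfap* probe, assigned to another transcript (chr11:102748864-102748923), had control levels of 6.23 and 6.59 in wild-type, not well above background, and of 8.15 and 8.32 in *Trp53*-/- NSPCs. It was at least 3.42-fold higher in *Trp53*-/- NSPCs (*q* = 0.0133), a limit set by the lowest signal above background on each array. This probe too passed the filter only through the *Trp53*-/- arrays, and its value is a description. The third probe (chr11:102752726-102752785) was dim, with 5.87 and 6.25 against 6.37 and 6.71, and its difference did not pass the test (*q* = 0.145).

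*S100b*, a calcium-binding protein of astrocytes that is also known from cells of the oligodendrocyte lineage, had control levels of 7.87 and 8.04 in wild-type and 9.73 and 9.97 in *Trp53*-/- NSPCs (chr10:75723783-75723842). The groups did not overlap, and the spread within a genotype was at most 0.176 (SD, n = 2). The difference was 1.89 (95% CI 1.45 to 2.34), or 3.72-fold, with *q* = 0.0101.

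*Slc1a2* encodes GLT-1, the main glutamate transporter of mature astrocytes. It had control levels of 7.87 and 7.87 in wild-type and 8.83 and 8.57 in *Trp53*-/- NSPCs (chr2:102617752-102617811), a 1.77-fold difference with *q* = 0.0379. Its other 2 probes, which are assigned to a different transcript, differed by 0.38 and 0.43 on the log2 scale and did not pass (*q* = 0.221 and 0.121). *Aqp4*, the water channel of astrocyte endfeet, was at 6.97 and 7.04 in wild-type and 7.68 and 7.65 in *Trp53*-/- NSPCs, a 1.58-fold difference at the edge of the threshold (*q* = 0.0495), and at its other probe 0.58 on the log2 scale with *q* = 0.0934.

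*Cd44*, the hyaluronan receptor that marks astrocyte-restricted precursors, had control levels of 9.93 and 8.89 in wild-type and 10.43 and 10.47 in *Trp53*-/- NSPCs, so the groups did not overlap. Its difference of 1.04 (95% CI 0.22 to 1.86) did not pass the adjusted test (*q* = 0.0819), and the wild-type levels had an SD of 0.736 (n = 2). A second probe had 8.36 and 8.15 against 8.87 and 8.88 (*q* = 0.0637). *Aldh1l1*, a folate enzyme used as a general astrocyte marker, also varied between the wild-type cultures, from 9.73 to 11.22, and the *Trp53*-/- values of 9.93 and 9.86 lay within that range.

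*Slc1a3*, *Aldoc*, *Gja1* and *Nfia* did not pass the test between the untreated genotypes. *Slc1a3*, a gene of radial glia and progenitors that encodes the glutamate transporter GLAST, had control levels of 13.16 and 12.86 in wild-type and 13.10 and 13.39 in *Trp53*-/- NSPCs. *Aldoc*, an enzyme of glycolysis, had 14.82 and 14.89 against 15.14 and 15.02, so its groups did not overlap, but the difference of 0.23 (95% CI -0.17 to 0.63) did not pass. *Gja1*, which encodes the gap junction protein connexin 43, had 8.53 and 7.94 against 8.25 and 8.02. *Nfia* had 8.43 and 8.06 against 8.26 and 8.58. The 95% CIs of the other 3 differences were -0.25 to 0.72 for *Slc1a3*, -0.69 to 0.49 for *Gja1* and -0.35 to 0.69 for *Nfia*. Over all 10 genes, both *Trp53*-/- arrays lay above both wild-type arrays for 6 genes and below for 0, and of all genes 27.2% were above and 29% below in this way.

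**Figure D1:**
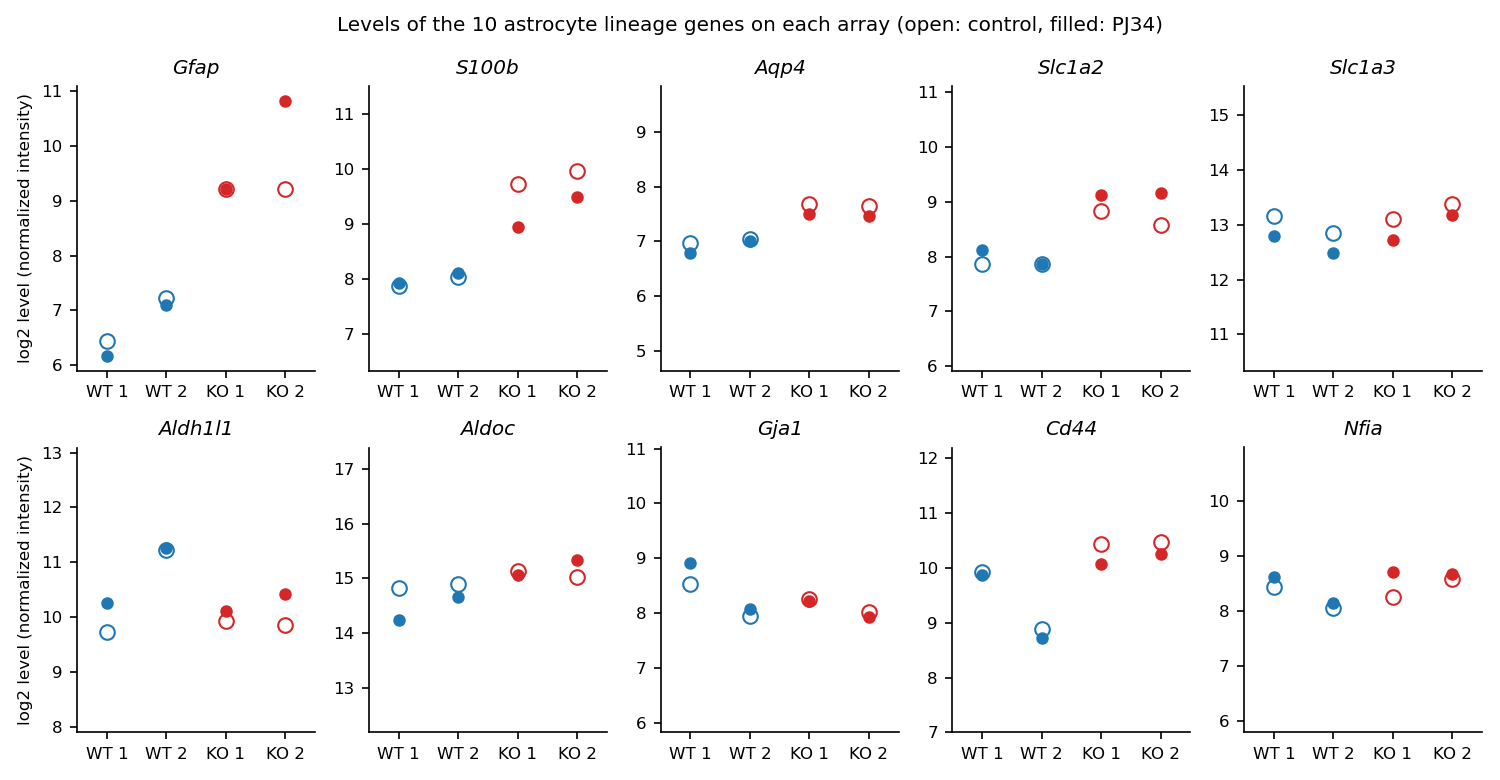
Log2 level of each gene on each array (WT wild-type, KO *Trp53*-/-, numbers are replicates), with open circles for control cells and filled circles for PJ34-treated cells. All panels span the same log2 range around their own centre, and a level is comparable only within a panel. *Gfap* and *S100b* lie higher on both *Trp53*-/- arrays, and the filled *Gfap* circle of *Trp53*-/- replicate 2, at 10.83, stands above the rest.

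**Figure D2:**
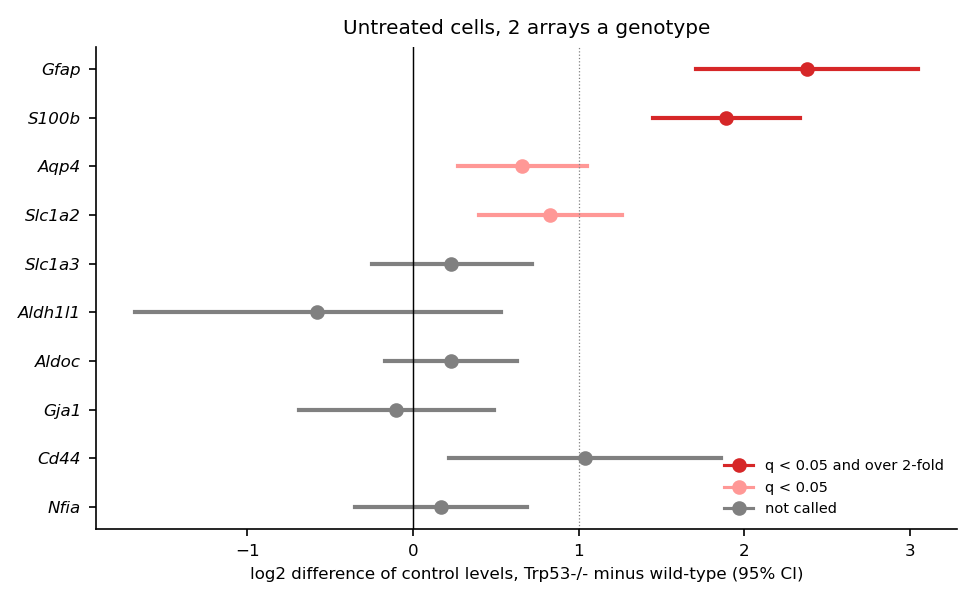
Difference of control levels between *Trp53*-/- and wild-type NSPCs on the log2 scale, with limma's 95% confidence interval (2 arrays a genotype). Positive values are higher in *Trp53*-/-, the dotted line marks a doubling, and the colours give the call. *Gfap* at 2.38 and *S100b* at 1.89 passed the 2-fold rule.

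The untreated calls rest on the spread of 2 arrays in each group. With either *Trp53*-/- array left out, 0 of the 10 genes passed (limma, 2 and 3 at an unadjusted *p* below 0.05), and with median scaling of the control channel 0 passed (4 unadjusted), although the differences of *Gfap* (2.26 to 2.38) and *S100b* (1.77 to 2.02) stayed near the full values in these settings. The untreated groups also differed in Y-linked RNA, with *Eif2s3y* control levels of 8.96 and 8.47 in wild-type and of 6.01 and 6.24, not well above background, in *Trp53*-/- NSPCs, and its part in these differences was not tested.

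Markers of another glial lineage also differed between the untreated genotypes. *Mbp*, which encodes myelin basic protein, had a control level 3.95-fold higher in *Trp53*-/- NSPCs (*q* = 0.00956), and *Pdgfra*, a receptor of oligodendrocyte precursors, was lower, with a log2 difference of -0.71 (*q* = 0.0497). Of 7 oligodendrocyte lineage markers, 1 was higher and 1 was lower, while 3.66% of all genes passed as higher and 3.61% as lower. The summed control level of these 7 markers was 42900 and 40700 intensity units on the wild-type arrays and 47100 and 40100 on the *Trp53*-/- arrays. The summed control level of the 10 astrocyte lineage genes was 41400 and 41900 in wild-type and 50000 and 49200 in *Trp53*-/- NSPCs. From 67.7% to 72.3% of this sum was signal of the *Aldoc* probe. The probes of the 4 called genes gave 1.65% and 1.86% of it in wild-type and 4.21% and 4.42% in *Trp53*-/- NSPCs. All sums here add intensities of different probes, also of genes not well above background. They and their shares describe signal and are not amounts of RNA or of cell types. The sum of the 8 NSPC markers was 163000 and 127000 against 133000 and 133000. For neuron markers the sums were 10200 and 7790 against 6850 and 7130. For microglia and macrophage markers, of which 2 of 7 were detected, they were 6240 and 7350 against 4570 and 3970, and for endothelial markers, of which 1 or 2 of 5 were detected, 8610 and 8180 against 3690 and 3300. Gene by gene, 6 of the 8 neuron markers were higher in *Trp53*-/- NSPCs by their estimates, although the sums were lower. *Stmn2* and *Neurod1*, both among the 6, were not well above background in any control channel, and the median below includes them. Of the 8 neuron markers, 2 passed as higher and 1 as lower. Of the 8 NSPC markers 1 passed as lower, and of the 2 endothelial markers tested 1 passed as lower, by more than 2-fold. Median differences were 0.54 for neuron, 0.49 for oligodendrocyte lineage and -0.22 for NSPC markers, against 0.45 for the astrocyte lineage genes. The part of these cell types in the result was not tested.

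The sequence just upstream is shown for the 3 genes that were higher in untreated *Trp53*-/- NSPCs and have an entry in the promoter table. These genes share a direction there because they were chosen by that call. The 250 bases before the RefSeq start site (GRCm38.p6) are printed 5′ to 3′ on the strand of the gene. Capitals mark the NFI motif TTGGC, read on both strands. No STAT site TTCNNNGAA, no TATA box TATAAA and no p53 motif (searched as 1 decamer) was found in the 3 windows, on either strand.
*Gfap*, chr11:102897201-102897450 (- strand): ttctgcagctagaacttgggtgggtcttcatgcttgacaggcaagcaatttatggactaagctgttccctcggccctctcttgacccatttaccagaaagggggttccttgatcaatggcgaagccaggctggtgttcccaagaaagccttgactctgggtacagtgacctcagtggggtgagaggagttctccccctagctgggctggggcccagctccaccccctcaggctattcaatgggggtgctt
*S100b*, chr10:76253586-76253835 (+ strand): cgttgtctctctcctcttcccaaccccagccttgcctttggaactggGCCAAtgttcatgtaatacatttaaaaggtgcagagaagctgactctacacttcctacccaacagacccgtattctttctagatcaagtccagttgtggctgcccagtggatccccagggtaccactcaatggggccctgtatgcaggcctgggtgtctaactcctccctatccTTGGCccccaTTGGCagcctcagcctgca
*Slc1a2*, chr2:102706188-102706437 (+ strand): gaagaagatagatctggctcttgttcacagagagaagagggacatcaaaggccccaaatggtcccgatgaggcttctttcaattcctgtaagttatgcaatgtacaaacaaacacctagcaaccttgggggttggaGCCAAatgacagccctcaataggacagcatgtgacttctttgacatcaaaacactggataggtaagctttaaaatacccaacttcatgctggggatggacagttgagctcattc

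The *S100b* window held 3 matches to the NFI motif and the *Slc1a2* window held 1, while the *Gfap* window held 0. Of 32851 windows of the same length in the table, 41.5% held this motif, 7.02% the STAT site, 12.4% the TATA box and 7.13% the p53 motif. A match in these windows is a description of letters, and regulatory sequence farther upstream was not searched.

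In wild-type NSPCs, PJ34 moved 3 of the 10 genes past the test at any fold, with *Gja1* higher and *Slc1a3* and *Aldoc* lower, and moved 0 by more than 2-fold. Of all genes, 24.8% passed at any fold (13.6% higher and 11.3% lower) and 0.499% with more than 2-fold, so the count of 3 lies close to the share over all genes. The median log2 ratio of the 10 genes was -0.02, against 0.03 over all genes.

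The log2 ratio of *Slc1a3* was -0.37 on wild-type replicate 1 and -0.38 on replicate 2, a 1.3-fold decrease with *q* = 0.00951, which did not pass with either wild-type array left out (*q* = 0.056 and 0.0569). *Aldoc* had -0.58 and -0.23, a 1.32-fold decrease with *q* = 0.0207. *Gja1*, read from 10 spots of 1 probe, had 0.39 and 0.15, a 1.2-fold increase with *q* = 0.0418. All 3 genes moved the same way on both arrays, but the *Aldoc* and *Gja1* changes on replicate 1 were over 2 times those on replicate 2, and without replicate 1 they were -0.23 and 0.15 and neither passed.

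The later astrocyte genes did not pass in wild-type NSPCs. *Gfap* had log2 ratios of -0.28 and -0.13 (95% CI of the mean -0.80 to 0.39), *S100b* had 0.06 and 0.07 (-0.15 to 0.29), and *Aqp4* had -0.17 and -0.04 (-0.30 to 0.10). *Slc1a2* had 0.24 and -0.01, *Aldh1l1* had 0.53 and 0.04, *Cd44* had -0.06 and -0.16, and *Nfia* had 0.18 and 0.08. The second *Nfia* probe went the other way, at -0.15 and -0.39 (*q* = 0.0463). So did the other 2 probes of *Slc1a2*, with means of -0.22 and -0.24 (*q* = 0.128 and 0.0601). The second *Gfap* probe, at 0.10 and 0.24 (*q* = 0.366), and the second *Cd44* probe, at 0.11 and 0.09 (*q* = 0.261), also went the other way. For *Gfap*, *S100b* and *Aqp4* the intervals stayed within 0.80 of 0 on the log2 scale. *Gfap* was not well above background in either channel of wild-type replicate 1, so its interval does not bound a change of this gene.

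In *Trp53*-/- NSPCs, PJ34 moved 6 of the 10 genes past the test at any fold. *Gfap*, *Slc1a2* and *Aldh1l1* were higher, *S100b*, *Slc1a3* and *Cd44* were lower, and 0 genes passed with more than 2-fold. Of all genes, 23.3% passed at any fold (12.8% higher and 10.5% lower) and 0.361% with more than 2-fold. Without *Trp53*-/- replicate 2, *S100b* alone among the 6 still passed, as given gene by gene below, and a smaller share of all genes passed too. The median of the 10 genes was 0.03, the same as over all genes, and 7 of the 10 had an unadjusted *p* below 0.05.

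The log2 ratio of *S100b* was -0.77 on *Trp53*-/- replicate 1 and -0.48 on replicate 2, a 1.54-fold decrease with *q* = 0.00177. Its level fell from 9.73 to 8.95 on replicate 1 and from 9.97 to 9.50 on replicate 2, which left it above the wild-type levels of 7.93 and 8.11 in PJ34-treated cells. Without replicate 2 the value was -0.77 (*q* = 0.00453) and without replicate 1 it was -0.48 (*q* = 0.0291), with the spread then taken from the wild-type arrays alone.

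The rise of *Gfap* rested on 1 array. Its log2 ratio was 0.00 on *Trp53*-/- replicate 1 and 1.62 on replicate 2, where the level went from 9.21 to 10.83. The mean was 0.81 with a spread of 1.15 (SD, n = 2) and *q* = 0.0337, and without replicate 2 the value was -0.00018 (*q* = 0.674). The second probe repeated the pattern, with -0.11 and 1.49, and the third, dim probe had 0.12 and 0.39. Replicate 2 is the array on which Y-linked RNA was present in the PJ34 channel only, and the part of this in the *Gfap* value was not tested.

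*Slc1a2* had 0.28 and 0.60 (*q* = 0.0104) and *Aldh1l1* had 0.18 and 0.56 (*q* = 0.0409), and both were again larger on replicate 2 and did not pass without it, at 0.28 (*q* = 0.216) and 0.18 (*q* = 0.421). *Slc1a3* had -0.38 and -0.21 (*q* = 0.026) and *Cd44* had -0.37 and -0.21 (*q* = 0.0298), and neither passed without either *Trp53*-/- array. *Aqp4* had -0.18 and -0.19 (*q* = 0.0925), *Nfia* had 0.45 and 0.09 (*q* = 0.0533), *Gja1* had -0.04 and -0.08, and *Aldoc* had -0.07 and 0.31. The other 2 probes of *Slc1a2* had means of 0.26 and 0.11 and did not pass (*q* = 0.0881 and 0.233). Neither did the second probes of *Cd44*, at -0.13 (*q* = 0.181), and of *Nfia*, at -0.09 (*q* = 0.284).

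**Figure D3:**
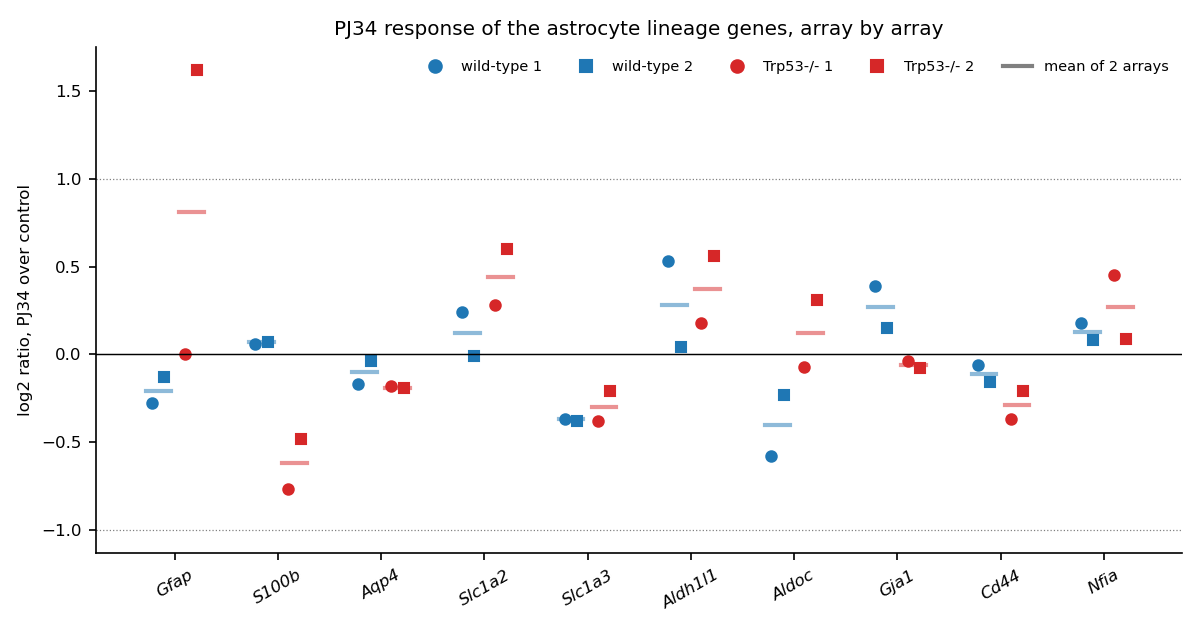
Log2 ratio of PJ34 over control for each gene on each array, with circles for replicate 1, squares for replicate 2, blue for wild-type and red for *Trp53*-/- NSPCs. Bars are means of 2 arrays and dotted lines mark a 2-fold change in each direction. The only point past a dotted line is *Gfap* on *Trp53*-/- replicate 2, at 1.62.

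**Figure D4:**
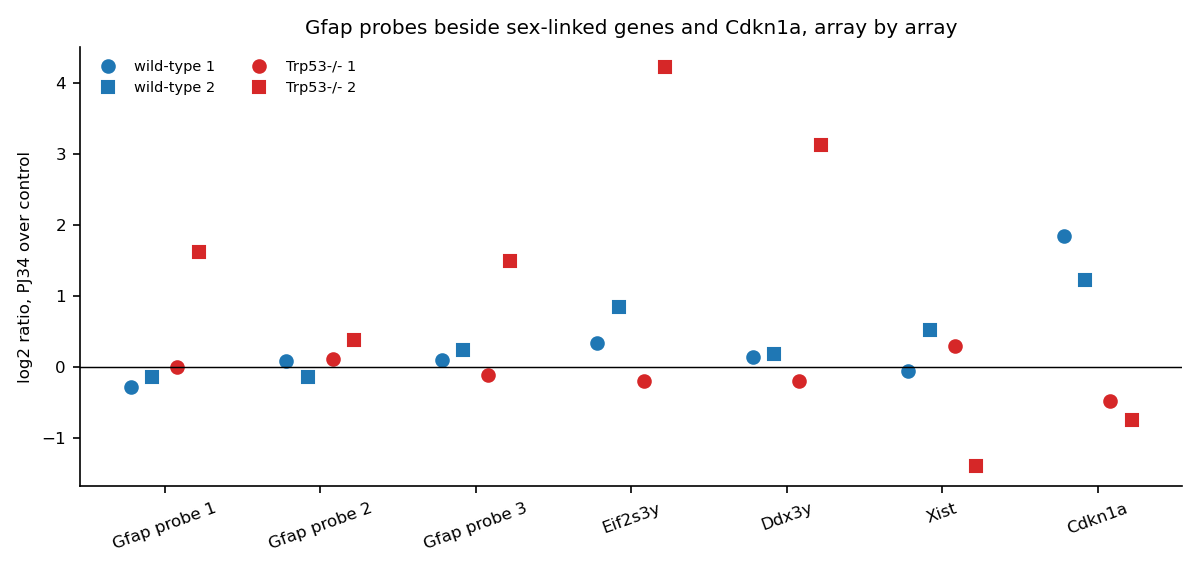
Log2 ratio of PJ34 over control for the 3 *Gfap* probes (in the order chr11:102751813, chr11:102752726 and chr11:102748864 by start), 2 Y-linked genes, *Xist* and *Cdkn1a* on each array. *Trp53*-/- replicate 2 (red squares) departs from the other arrays in *Gfap*, in *Eif2s3y* at 4.22, in *Ddx3y* at 3.12 and in *Xist* at -1.39.

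The directions of the PJ34 response above are those after loess within arrays. When arrays were centred on their median instead, the median of all genes was 0.46 in wild-type and 0.63 in *Trp53*-/- NSPCs, and the ratios of *Slc1a3*, *Aldoc*, *Cd44* and *Aqp4* in wild-type and of *S100b*, *Slc1a3*, *Cd44*, *Gja1* and *Aqp4* in *Trp53*-/- NSPCs turned positive, all below those medians except *Slc1a3* in *Trp53*-/- NSPCs at 0.68. The dyes were not swapped, so a bias of a probe for a dye and an effect of PJ34 cannot be told apart within a genotype.

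The response to PJ34 differed between the genotypes for 1 of the 10 genes, *S100b*, for which wild-type minus *Trp53*-/- was 0.69 (95% CI 0.38 to 1.00, *q* = 0.0342). Of all genes, 1.74% passed this test (1.27% with a higher and 0.47% with a lower value in wild-type) and 0.47% with more than 2-fold. In this test a dye bias that is the same on all arrays cancels. For *Gfap* the difference was -1.02 (95% CI -1.86 to -0.17) and did not pass (*q* = 0.18), and without *Trp53*-/- replicate 2 it was -0.21. *Aldoc* had -0.53 (*q* = 0.128), *Slc1a2* had -0.33 (*q* = 0.267) and *Gja1* had 0.33 (*q* = 0.216). The differences of the remaining 5 genes lay between -0.14 and 0.18. The *S100b* difference was 0.84 (*q* = 0.0298) without *Trp53*-/- replicate 2 and 0.54 without replicate 1, where it no longer passed (*q* = 0.124). It also did not pass without background correction (0.74, *q* = 0.0529), with a normexp offset of 16 (0.74, *q* = 0.125), with median centring (0.36, *q* = 0.665) or with the scanner software's log ratios (0.76, *q* = 0.263).

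Other genes of mature astrocytes were read from a list of 35, of which 32 were tested. In untreated cells 15 of these were higher in *Trp53*-/- NSPCs and 0 were lower, 11 of the 15 by more than 2-fold. The median difference was 0.79 against 0 over all genes. Of all genes, 3.66% passed as higher and 3.61% as lower, and 3.78% passed with more than 2-fold in either direction. Of the 15, 14 were well above background in both wild-type controls, and *Entpd2*, named for this after its values were seen, was in neither. *Entpd2* passed the filter on dim probes only through the *Trp53*-/- arrays, and was at least 1.9-fold higher there. Its call, also counted among those past 2-fold, is no independent support. *Fgfr3*, a fibroblast growth factor receptor of astrocytes and their precursors, had control levels of 10.95 and 11.11 in wild-type and 13.46 and 13.47 in *Trp53*-/- NSPCs, a 5.41-fold difference (*q* = 0.0078). *Apoe*, the lipid carrier made by astrocytes, was 4.77-fold higher (*q* = 0.0431) with wild-type levels of 10.84 and 12.56. *Sdc4*, a cell surface proteoglycan, was 4.06-fold higher (*q* = 0.0103) and *Clu*, which encodes the secreted chaperone clusterin, 3.13-fold higher (*q* = 0.023).

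With PJ34, 5 of the 32 mature astrocyte genes were higher and 11 lower in wild-type NSPCs, and 6 were higher and 8 lower in *Trp53*-/- NSPCs. Over all genes the shares were 13.6% higher and 11.3% lower in wild-type and 12.8% and 10.5% in *Trp53*-/- NSPCs. The medians of the list were -0.07 and -0.04. *Fgfr3* changed by -1.49 and -1.39 in wild-type and by -1.18 and -1.37 in *Trp53*-/- NSPCs, and was the only gene of the list past 2-fold in both genotypes. *Kcnj10*, the potassium channel Kir4.1 of astrocytes, had -1.05 and -0.97 in wild-type (*q* = 0.000248) and -0.99 and -0.54 in *Trp53*-/- NSPCs (*q* = 0.00127). *Apoe* had 0.84 and 0.87 in wild-type and 0.16 and 0.56 in *Trp53*-/- NSPCs, *Mt2*, a metallothionein, had means of -0.84 and -0.91, and *Sdc4* had -0.34 and -0.70. Without *Trp53*-/- replicate 2, 0 genes were higher and 5 lower in *Trp53*-/- NSPCs (9 at an unadjusted *p* below 0.05), among them *Fgfr3*, *Mt2*, *Kcnj10* and *Sdc4*, while 6.53% of all genes passed. The difference between the genotypes passed for 0 of the 32 genes with or without this array (limma, 8 and 8 at an unadjusted *p* below 0.05). The directions of single genes here are those after loess.

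Transcription factors of gliogenesis were read from a list of 17, of which 16 were tested. In untreated cells *Nfix*, a relative of *Nfia*, was 1.99-fold higher in *Trp53*-/- NSPCs (*q* = 0.0241), and *Lhx2*, a homeobox factor of cortical progenitors, was lower with a log2 difference of -1.02 (*q* = 0.0361), and the median was 0.25. Of all genes, 3.66% passed as higher and 3.61% as lower in untreated cells. With PJ34, 1 factor was higher and 4 lower in wild-type and 5 were higher and 2 lower in *Trp53*-/- NSPCs. The shares over all genes were 13.6% higher and 11.3% lower in wild-type and 12.8% and 10.5% in *Trp53*-/- NSPCs. *Hes5*, an effector of Notch signalling, changed by -2.01 and -1.50 on the log2 scale in wild-type and by -0.85 and -0.44 in *Trp53*-/- NSPCs, and the difference passed (-1.11, *q* = 0.0171) but not without *Trp53*-/- replicate 2 (-0.91, *q* = 0.0566). *Id2* rose and *Id3* fell in both genotypes, with means of 0.61 and -0.53 in wild-type and of 0.49 and -0.58 in *Trp53*-/- NSPCs. *Hes1*, another Notch effector, fell in wild-type (-0.36, *q* = 0.0136) and *Zbtb20*, a zinc finger factor, rose in *Trp53*-/- NSPCs (0.48, *q* = 0.0059). Fewer factors passed there without *Trp53*-/- replicate 2, and *Id2* and *Zbtb20* were then not among them. On replicate 1 alone the values were 0.40 for *Id2*, 0.32 for *Zbtb20*, -0.85 for *Hes5* and -0.59 for *Id3*.

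All 15 receptors and transducers of gliogenic cytokines and BMPs were tested. In untreated cells 2 were higher in *Trp53*-/- NSPCs and 0 lower, with a median of 0.54, while 3.66% of all genes passed as higher. *Il6ra*, the interleukin-6 receptor, had control levels of 7.14 and 8.21 in wild-type and 9.85 and 9.91 in *Trp53*-/- NSPCs, a 4.62-fold difference (*q* = 0.0223). *Osmr*, the oncostatin M receptor, was not well above background in wild-type and was at least 2.68-fold higher in *Trp53*-/- NSPCs (*q* = 0.0131). It passed the filter on dim probes only through the *Trp53*-/- arrays, so 1 of the 2 calls is no independent support. With PJ34, 1 of the 15 was higher and 3 lower in wild-type and 6 were higher and 2 lower in *Trp53*-/- NSPCs. The shares over all genes were 13.6% higher and 11.3% lower in wild-type and 12.8% and 10.5% in *Trp53*-/- NSPCs. *Il6ra* rose in both genotypes, with means of 0.56 (*q* = 0.00165) and 0.40 (*q* = 0.00939), and *Cntfr*, the receptor of ciliary neurotrophic factor, fell in both, with -0.36 (*q* = 0.0131) and -0.76 (*q* = 0.000553). In wild-type *Bmpr1b*, a BMP receptor, fell with -0.59 and the kinase gene *Jak2* with -0.40, and in *Trp53*-/- NSPCs the kinase gene *Tyk2* fell with -0.47 and *Socs2*, of a family of cytokine signalling inhibitors, rose with 0.41. Fewer of the 15 passed in *Trp53*-/- NSPCs without *Trp53*-/- replicate 2, and *Il6ra* was not among them. On replicate 1 alone the values were 0.31 for *Il6ra*, -0.77 for *Cntfr* and -0.54 for *Osmr*. *Osmr* went the other way on replicate 2, at 0.34, and its mean of -0.10 did not pass (limma, *q* = 0.352).

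Genes of reactive astrocytes were read from a list of 24, of which 17 were tested, and *Serpina3n*, *Steap4* and *Ptx3* were among those without a probe past the filter. In untreated cells 5 were higher in *Trp53*-/- NSPCs and 1 was lower, with a median of 0.54. Of all genes, 3.66% passed as higher and 3.61% as lower. *Tm4sf1* was 3.82-fold higher (*q* = 0.0101) and *Timp1*, an inhibitor of metalloproteinases, 3.4-fold higher (*q* = 0.0162), and *Emp1* and *Osmr*, the latter with the limit given above, were the others past 2-fold. *H2-D1*, a class I histocompatibility gene, was lower, with control levels of 9.77 and 10.05 in wild-type and 6.57 and 6.77 in *Trp53*-/- NSPCs (*q* = 0.0078), where it was well above background on 1 of 2 arrays. With PJ34, 2 were higher and 3 lower in wild-type and 1 was higher and 6 lower in *Trp53*-/- NSPCs. The shares over all genes were 13.6% higher and 11.3% lower in wild-type and 12.8% and 10.5% in *Trp53*-/- NSPCs. *Emp1* fell with means of -0.67 and -0.75, *Timp1* with -0.60 and -0.69 and *S100a10* with -0.46 and -0.76. *Tm4sf1* rose in wild-type (0.56, *q* = 0.00271), and *H2-D1* was the gene that rose in *Trp53*-/- NSPCs, with 0.28 on replicate 1 and 1.83 on replicate 2 (mean 1.06, *q* = 0.0106). Replicate 2 is the array with Y-linked RNA in the PJ34 channel only, and the part of this in the *H2-D1* value was not tested. Without *Trp53*-/- replicate 2, *H2-D1* had 0.28 and *Emp1* had -0.49, and neither passed. Fewer genes of the list passed as lower there. The untreated counts of all 4 lists were 0 without either *Trp53*-/- array (limma). At an unadjusted *p* below 0.05 they were 13 and 16 for the mature astrocyte genes, 1 and 1 for the transcription factors, 4 and 3 for the receptors and 5 and 5 for the reactive genes.

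**Figure D5:**
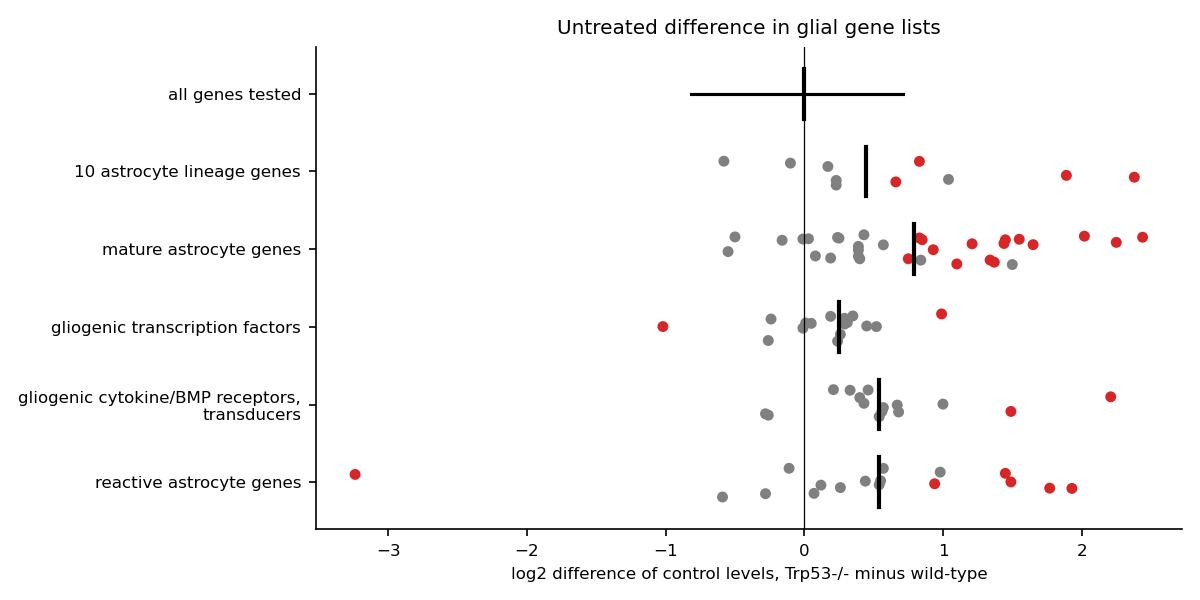
Log2 difference of control levels, *Trp53*-/- minus wild-type, with a point for each gene tested, red where it passed at any fold, and a black bar for the median of each list. For all genes the line spans the 5th to the 95th percentile, from -0.82 to 0.71. The median of the mature astrocyte genes is 0.79 and that of the gliogenic transcription factors 0.25.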

How the data were processed

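The members and all gene lists were chosen with earlier results of these data known. The authors extracted the 2-colour arrays (Agilent SurePrint G3 Mouse GE) with Agilent Feature Extraction 10.7.3.1, per the submitters' processing notes, and RNA was prepared independently for each of the 2 replicates of a genotype. The deposited intensity values used here are each spot's mean signal and local median background in both colours. The deposited log10 ratios of the same software served as an alternative only. A series table with 4 columns of normalized values named by number was not used here. Positions of probes are on mm9. Symbols were matched by RefSeq accession for 47.2% of probes and otherwise are those of the files. Promoter sequences are from RefSeq (GRCm38.p6), where 9 of the 10 members had an entry.

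Backgrounds were corrected by normexp (offset 50) and ratios by loess (limma 3.58.1, R 4.3.3), control and outlier spots (228 to 276 of the latter per array) were left out, and spots of a probe were averaged. Control levels were then brought to a common distribution of mean intensity between arrays (Aquantile). A probe needed a channel above background in each replicate of a genotype to be kept (27042 probes), and a gene was read from its brightest kept probe. limma was fitted with a mean per genotype (2 residual degrees of freedom, 10.3 after moderation for ratios and 6.17 for levels), and Storey's q was taken over all 20227 genes. Calls needed p and q below 0.05, with more than 2-fold as the stricter rule of the study's methods. Lower limits use the lowest signal well above background. All 10 members are named with every probe kept, and of other lists up to 4 called genes a comparison, largest change first, with genes named for another comparison given alongside. The counts without *Trp53*-/- replicate 2 were added after the data were seen. A marker gene is not reported here and was left out of its list. Scripts were tested on simulated data. Alternatives covered background correction, normalization, filters, probe choice, pairing, variance model, adjustment and each array left out.

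The main tests did not pair samples by replicate number. The correlation across genes of replicate 1 minus 2 between the genotypes was -0.178 for ratios and 0.0809 for control levels. These values show no strong shared effect of the number, and they cannot show whether samples were prepared in pairs.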

Additional observations from a re-analysis of the deposited data

Results flagged for a closer look

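The response to PJ34 differed between the genotypes, by limma's test of the difference itself, for 5 genes among the members, the lists and the cell type markers. Of all 20227 genes, 1.74% passed this test, 1.27% with a higher and 0.47% with a lower value in wild-type. The 5 genes are named because they passed. *S100b* differed by 0.69 on the log2 scale (wild-type minus *Trp53*-/-, *q* = 0.0342), with means of 0.07 and -0.62. *Hes5* differed by -1.11 (*q* = 0.0171), with means of -1.76 and -0.65. *Tm4sf1* differed by 0.82 (*q* = 0.0208), with means of 0.56 and -0.26. *Sphk1*, a sphingosine kinase of the reactive list, differed by 0.80 (*q* = 0.0174), with means of 0.32 and -0.49. *Cspg4*, the NG2 proteoglycan of oligodendrocyte precursors, differed by 0.95 (*q* = 0.034), with means of 0.12 and -0.83, and its wild-type arrays had 0.44 and -0.19. Without *Trp53*-/- replicate 2 the differences were 0.84 for *S100b* (*q* = 0.0298), -0.91 for *Hes5* (*q* = 0.0566, no longer passing), 1.00 for *Tm4sf1* (*q* = 0.0134), 0.89 for *Sphk1* (*q* = 0.0258) and 1.05 for *Cspg4* (*q* = 0.0441).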

How the results depend on the processing

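Of 139 comparisons of the 10 genes' untreated differences with an alternative, 111 kept direction and call, 18 lost the call, 6 gained it and 4 reversed. For PJ34 these counts were 134, 12, 6 and 7 of 159 in wild-type, 124, 21, 7 and 7 of 159 in *Trp53*-/- NSPCs, and 133, 5, 5 and 6 of 149 for the difference between genotypes. The cause of a changed call was not tested except where fewer arrays or an adjustment made it. Counts below are genes at any fold among the 10, then all genes past 2-fold. Slide as a random block was not run, since each slide holds 1 array, and probes not above background on both arrays of a genotype give limits rather than levels.

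With median centring, calls were 6 and 1181 (1179 higher) in wild-type, against 3 and 101, and all-gene calls 3408 (3404 higher) in *Trp53*-/- NSPCs, against 73 (18 higher), and the difference had 82 calls higher and 31 lower in wild-type, against 88 and 7. Reversed values in wild-type were *Aqp4* 0.12, *Slc1a3* 0.31, *Aldoc* 0.37 and *Cd44* 0.43, in *Trp53*-/- *S100b* 0.14, *Aqp4* 0.28, *Slc1a3* 0.68, *Gja1* 0.52 and *Cd44* 0.54, and in the difference *Aqp4* -0.16 and *Cd44* -0.11. With the scanner software's log ratios, calls were 0 and 561 (383 higher) in wild-type (limma, 1 of the 10 at an unadjusted *p* below 0.05), 1 and 527 (377 higher) in *Trp53*-/-, and 0 and 0 for the difference (1 and 2341 unadjusted). With an offset of 16, all-gene calls were 166 in wild-type, calls were 2 and 130 in *Trp53*-/- and 0 and 39 for the difference (4 of the 10 unadjusted), and all-gene untreated calls were 1164. Without background correction the difference had 0 calls (4 unadjusted). With the mean over a gene's probes, *Slc1a2* was -0.11 and *Nfia* -0.07 in wild-type and untreated calls were 2. They were also 2 with the strict filter and with Benjamini-Hochberg adjustment, which left 2 calls in *Trp53*-/- with PJ34. With median scaling, untreated calls were 0 and 0 (4 and 3083 unadjusted).

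With the replicate block, calls were 2 in wild-type (*Gja1* lost, *q* = 0.0573), 6 in *Trp53*-/-, 2 for the difference (*Gfap* added, *q* = 0.0065) and 5 untreated (*Cd44* added, *q* = 0.00151), and all-gene calls were 101, 76 and 1007 in wild-type, in *Trp53*-/- and untreated. The samples share only a number. With the numbers crossed, chosen after seeing the data, all-gene calls for PJ34 were 101 in wild-type and 76 in *Trp53*-/-.

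With each array left out in turn, calls were 0 to 3 and all-gene calls 101 to 151 in wild-type, 1 (without *Trp53*-/- replicate 2) to 7 and 76 to 165 in *Trp53*-/-, 1 to 3 and 92 to 163 for the difference, and 0 (without either *Trp53*-/- array) to 6 and 0 to 1548 (without wild-type replicate 2) untreated (2180 and 1498 unadjusted where 0). Directions that turned were *Slc1a2* in wild-type (-0.0094 to 0.24), *Gfap* (-0.00018 to 1.62) and *Aldoc* (-0.065 to 0.31) in *Trp53*-/-, *Aldh1l1* (-0.33 to 0.16), *Nfia* (-0.32 to 0.039) and *Slc1a3* (-0.16 to 0.0049) in the difference, and *Gja1* (-0.40 to 0.20), *Aldh1l1* (-1.32 to 0.17) and *Nfia* (-0.013 to 0.35) untreated.

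The counts of listed genes higher in untreated *Trp53*-/- NSPCs were recomputed with alternatives chosen after seeing the data. The 15 mature astrocyte genes became 9 with Benjamini-Hochberg adjustment, 0 with median scaling (16 unadjusted) and 0 to 24 with an array left out. The 1 transcription factor became 0 with median scaling (4 unadjusted) and 0 to 5 with an array left out. The 2 receptors became 1 with the strict filter, 5 with the replicate block, 5 with a separate-channel model, 0 with median scaling (4 unadjusted) and 0 to 10 with an array left out. The 5 reactive genes became 0 with median scaling (9 unadjusted) and 0 to 10 with an array left out.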

Other observations

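In the PJ34-treated cells, *Gfap* had levels of 6.16 and 7.10 in wild-type and 9.22 and 10.83 in *Trp53*-/- NSPCs, and *Slc1a2* had 8.12 and 7.86 against 9.12 and 9.17. These levels in the PJ34 channel were not tested.

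Of 7 oligodendrocyte lineage markers, 5 fell with PJ34 in *Trp53*-/- NSPCs and 2 in wild-type NSPCs at any fold (limma), and 0 rose in either genotype, against 10.5% and 11.3% of all genes that fell. Without *Trp53*-/- replicate 2, 3 fell in *Trp53*-/- NSPCs, *Olig2*, *Pdgfra* and *Cspg4*. The difference between the genotypes passed for 1 of them, *Cspg4*.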
